A study of Arabidopsis thaliana with 12 samples.

Results

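The JASMONATE ZIM-DOMAIN (JAZ) repressors were followed in roots of wild-type Arabidopsis (Arabidopsis thaliana) treated with the synthetic auxin conjugate BiAux, with the natural auxin indole-3-acetic acid (IAA), or with both. The members are the genes JAZ1, JAZ2, JAZ3, JAZ5, JAZ6, JAZ7, JAZ8, JAZ9, JAZ10 and JAZ12, chosen by gene identifier, and all 10 were among the 20814 genes of the expression table. JAZ4, JAZ11 and JAZ13 are not among these members. Seedlings grew for 4 d on dilute MS medium and then spent 3 d on fresh medium with no added compound (mock), 5 µM BiAux, 10 nM IAA, or 5 µM BiAux together with 10 nM IAA. Poly(A) RNA of roots was sequenced from 3 libraries per treatment, 12 libraries in all, and every library came from the wild type. BiAux is a bis-methyl auxin that carries an N-glucoside, and IAA is the main auxin of plants. In RNA of a whole organ, fewer cells that express a gene and less transcript per cell cannot be told apart.

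Jasmonate is a lipid hormone made after wounding, touch and attack. In its absence JAZ proteins bind MYC transcription factors and, through the adaptor NINJA and the corepressor TOPLESS, keep jasmonate response genes silent. The conjugate of jasmonate with isoleucine joins JAZ proteins to the F-box protein COI1, a close relative of the auxin receptor TIR1, and the JAZ proteins are then degraded. Many JAZ genes are themselves targets of MYC factors, so their transcripts rise when the hormone acts. In roots, jasmonate is known for slowing elongation.

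Libraries are named by their titles, to which the table's column names correspond. In 7 of the 12 libraries, among them all 3 titled IAA and all 3 titled BiAux, the treatment entry of the labels contradicts the title, and that entry was not used. The gene list that the study gives for BiAux against mock follows the libraries titled IAA and not those titled BiAux, and its lists for IAA and for both compounds follow no group of titles closely. Which compound each treated library received is therefore not settled. BiAux, IAA and BiAux+IAA stand here for the titles, and every direction, the differences over all 12 libraries and the interaction hold only if the titles are right. Summed normalized counts lay between 32413978 and 32720463 per library. All 8 genes of a list of root markers were detected. Their summed level, 10774 to 16416 CPM (counts scaled to a common library total), was mostly PYK10, and the other 7 summed to 378 to 599 CPM, with single genes averaging from 11.3 to 328 CPM. The 5 measured genes of a list of photosynthesis genes typical of shoots summed to 36.6 to 67.9 CPM, and their more abundant genes, RCA at 17.9 and RBCS1A at 13.2 CPM, were at the level of the weaker root markers. Auxin response genes, 9 of them tested, had a summed level of 145 to 167 CPM in mock, 169 to 188 in IAA, 116 to 124 in BiAux and 113 to 124 in BiAux+IAA. On this list the libraries titled BiAux+IAA thus stood below mock and below IAA. The sums hide differences between genes: in IAA against mock the median log2 change of the 9 was 0.17, and 2 of the 9 were lower.

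MYC factors bind the G-box, CACGTG, and some variants of it. The 300 bases before the start of each gene (RefSeq, TAIR10.1) were searched on both strands. A G-box was found for JAZ2, JAZ3, JAZ7 and JAZ8, which are 4 of 10 members, and in 7.94% of the 20493 promoters of protein-coding genes in the table. CACATG, or CATGTG on the other strand, was found for JAZ9 and JAZ10 and in 13.1% of promoters. AACGTG, or CACGTT on the other strand, was found for JAZ3, JAZ5, JAZ6 and JAZ12 and in 8.83% of promoters. JAZ1 held none of these letters. Windows are shown for the 4 members that passed the test in a pairwise comparison of treatments, 5′ to 3′ on the strand of the gene, with the matched letters in capitals.
JAZ2, chr1:28150485-28150534, minus strand: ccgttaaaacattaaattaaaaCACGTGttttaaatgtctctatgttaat
JAZ9, chr1:26654488-26654528, plus strand: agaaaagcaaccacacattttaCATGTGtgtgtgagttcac
JAZ10, chr5:4218699-4218748, plus strand: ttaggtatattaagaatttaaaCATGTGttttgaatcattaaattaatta
JAZ6, chr1:27276662-27276711, minus strand: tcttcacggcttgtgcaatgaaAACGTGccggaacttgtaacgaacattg
The match of JAZ9 began 19 bases before the start of the gene, those of JAZ10 and JAZ2 began 65 and 66 bases before it, and that of JAZ6 began 127 bases before it. The auxin response element TGTCTC, on either strand, was found for JAZ1, JAZ2 and JAZ3 and in 12.8% of promoters. The evening element AAAATATCT, on either strand, a site of the circadian clock, was found for JAZ10 and no other member, and in 2.85% of promoters. A match describes letters and is not a shown binding site.

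Levels of different genes were set side by side as CPM per kb of exon in the RefSeq gene models. The means over the 12 libraries ran from 60.2 CPM per kb for JAZ1 through 38.7 for JAZ2, 33.4 for JAZ12, 20.8 for JAZ3, 5.81 for JAZ6, 3.88 for JAZ7, 3.64 for JAZ9 and 3.62 for JAZ10 to 0.799 for JAZ5 and 0.178 for JAZ8. The levels of neighbours in this order overlapped between JAZ1 and JAZ2, between JAZ2 and JAZ12, and along the run from JAZ6 to JAZ10. No library overlapped between JAZ12 and JAZ3, between JAZ3 and JAZ6, between JAZ10 and JAZ5, or between JAZ5 and JAZ8. JAZ1 and JAZ2 are a related pair of repressors, and JAZ12, whose protein is known as a target of the ubiquitin ligase KEEP ON GOING, is expressed steadily in many tissues. Of the exon sequence of each member, 0% of 50-base stretches occurred a second time in the nuclear genome.

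**Figure D1:**
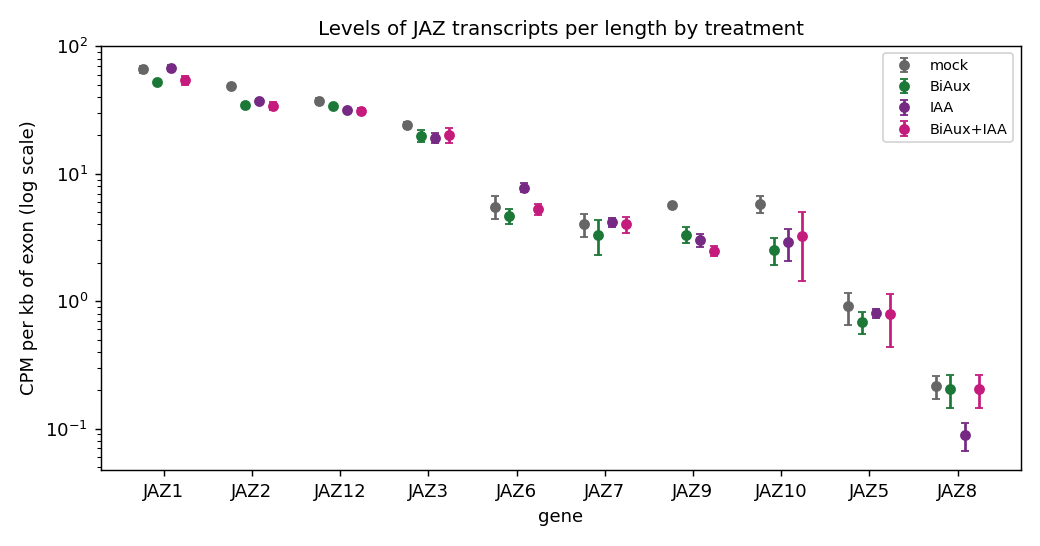
Mean level of each JAZ transcript in CPM per kb of exon (log axis) in mock, BiAux, IAA and BiAux+IAA roots, with SD over 3 libraries as bars. JAZ1 leads at 60.2 CPM per kb over all libraries and JAZ8 is lowest at 0.178.

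The largest differences from mock were those of JAZ9 and JAZ10, which fell under each of the 3 treatments. JAZ9 (AT1G70700; chr1:26654529-26657350, plus strand), a repressor that also binds DELLA proteins of the gibberellin pathway, stood at 356, 346 and 332 normalized counts in mock. It stood at 232, 195 and 177 counts in BiAux, at 170, 208 and 171 in IAA, and at 141, 143 and 167 in BiAux+IAA. Every treated library thus lay below every mock library, and the mock libraries lay close together.

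Differences were tested with limma on the log2 of the value plus 16.3 normalized counts (0.5 CPM), and a gene was called where the unadjusted p was under 0.05 and the change on the log2 scale exceeded 0.5 in either direction. The addition understates the change of weakly expressed genes. For JAZ9 the log2 fold change against mock was -0.74 in BiAux (standard error 0.13, limma p 0.000542, adjusted p 0.233). In IAA it was -0.86 (standard error 0.12, p 7.43e-05, adjusted p 0.0414), and in BiAux+IAA it was -1.12 (standard error 0.12, p 8.21e-06, adjusted p 0.00673). JAZ9 in BiAux and in IAA did not differ past the threshold (difference 0.12, 95% interval -0.18 to 0.43, limma p 0.377). Each of these 3 falls remained called without any 1 of the libraries compared.

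JAZ10 (AT5G13220; chr5:4218786-4221077, plus strand) is known for splice forms that resist degradation, which the gene-level counts do not tell apart. It stood at 360, 416 and 483 normalized counts in mock, at 139, 225 and 183 in BiAux and at 156, 198 and 273 in IAA. In BiAux+IAA it stood at 93, 258 and 347. All treated libraries were below all mock libraries, but the BiAux+IAA libraries differed from one another by more than the mean fall.

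The log2 fold change of JAZ10 against mock was -1.15 in BiAux (standard error 0.19, limma p 0.000422, adjusted p 0.201) and -0.98 in IAA (standard error 0.20, p 0.000987, adjusted p 0.0823). In BiAux+IAA it was -0.97 (standard error 0.38, p 0.0316, adjusted p 0.305). Without BiAux+IAA 1 this value was -0.46, past the p threshold and not past the fold limit, and without mock 2 or mock 3 its p was 0.0654 or 0.0727, so the call ended. JAZ10 in BiAux+IAA and in IAA differed by 0.01 with a 95% interval from -0.77 to 0.79. The annotation places AT5G02045 on the opposite strand over JAZ10, and without strand the reads of both cannot be told apart.

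Mock and BiAux libraries with the same number deviated together, with correlations across genes between 0.41 and 0.78 over 3 pairs. Pairs with different numbers ranged from -0.69 to 0.62, and BiAux 2 was closer to mock 3 (0.62) than to mock 2 (0.41), so only number 1 stood apart. With the replicate number as a block, the adjusted p in BiAux against mock was 0.00256 for JAZ9 and 0.000318 for JAZ10, at unchanged fold changes, so that both passed the adjusted threshold as well. It was 0.0018 for JAZ2 and 0.0202 for JAZ1, which did not pass the fold limit. With the block, 1.4% of all tested genes had an adjusted p under 0.05 and a change past the limit, against 0.031% without it. The block also raised this share against mock in IAA (0.284% to 0.941%) and in BiAux+IAA (1.46% to 3.9%). Same-numbered libraries there had mean correlations of -0.006 and 0.008. The part of pairing in the lower adjusted p-values of JAZ9 and JAZ10 was not tested.

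**Figure D2:**
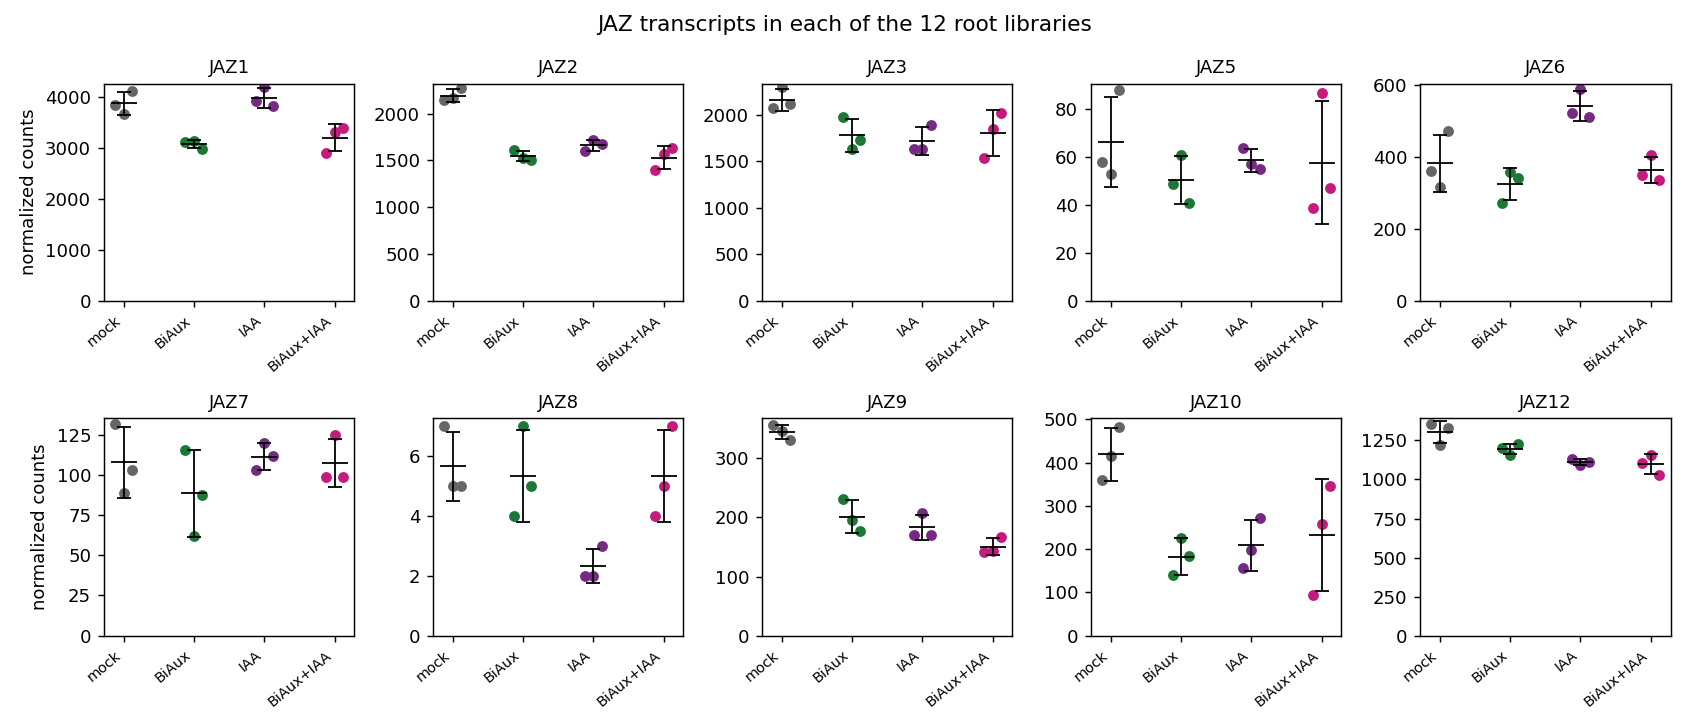
Normalized counts of the 10 JAZ genes in each library (coloured points) with the mean and SD of 3 libraries (black), 1 panel per gene with axes from 0. JAZ9 lies at 332 to 356 in mock and at 141 to 232 in the treated libraries, and JAZ6 lies highest in IAA at 512 to 588.

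JAZ2 (AT1G74950; chr1:28148574-28150446, minus strand) was also highest in mock, at a higher level. It stood at 2140, 2162 and 2276 normalized counts in mock, at 1613, 1524 and 1506 in BiAux, at 1602, 1718 and 1671 in IAA and at 1393, 1567 and 1631 in BiAux+IAA. Again no treated library reached the lowest mock library. JAZ2 fell in BiAux+IAA (log2 fold change -0.52, standard error 0.09, limma p 0.000393, adjusted p 0.037), where it was just past the fold limit. The value was -0.50 with median-of-ratios factors, -0.49 without mock 3 and -0.45 without BiAux+IAA 1, all short of the limit. In BiAux alone the change of -0.50 (standard error 0.08, p 0.000282) and in IAA that of -0.40 (standard error 0.08, p 0.000798) passed the p threshold and stayed just inside or inside the limit.

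JAZ1 (AT1G19180; chr1:6621777-6623668, plus strand), the most abundant member, separated the libraries by BiAux and not by IAA. It stood at 3842, 3678 and 4118 normalized counts in mock and at 3934, 4204 and 3834 in IAA. It stood at 3131, 3136 and 2985 in BiAux and at 2899, 3326 and 3391 in BiAux+IAA. All 6 libraries with BiAux lay between 2899 and 3391 and all 6 without it between 3678 and 4204. Groups of 6 and 6 were separated in this way, with the BiAux side lower, for 0.688% of tested genes.

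In the fit of all 12 libraries the BiAux difference of JAZ1, averaged over IAA, was -0.32 on the log2 scale (standard error 0.05, limma p 6.83e-05, adjusted p 0.0131). This is a change of -20.0% and is inside the fold limit, so JAZ1 was not called, although 1.69% of tested genes had an adjusted p under 0.05 in this comparison. The IAA difference of JAZ1 was 0.05 (95% interval -0.07 to 0.17, p 0.409). The BiAux differences with and without IAA differed by 0.01 (95% interval -0.23 to 0.25, p 0.92). JAZ2 and JAZ9 also had an adjusted p under 0.05 for the BiAux difference (-0.31, adjusted p 0.0121, and -0.50, adjusted p 0.0132), but their libraries with and without BiAux overlapped. The only member called lower for this difference was JAZ10 (-0.57, p 0.0434, adjusted p 0.407, 1.11% of all genes), and that call ended without any 1 of 7 libraries, among them BiAux+IAA 1 (-0.31, p 0.0769). The IAA difference over all 12 libraries was called for JAZ9 (-0.62, standard error 0.09, p 8.7e-06, adjusted p 0.00224), where 1.47% of all genes were called lower.

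JAZ6 (AT1G72450; chr1:27273968-27276562, minus strand), which carries an EAR-type repression motif like its close relative JAZ5, was highest in IAA. It stood at 361, 317 and 471 normalized counts in mock, at 273, 357 and 341 in BiAux, at 522, 588 and 512 in IAA and at 349, 405 and 337 in BiAux+IAA. The IAA libraries lay above all 9 others, as they did for 4.89% of all genes, and 12.1% of all genes lay higher in IAA than in mock with no overlap. Compared with IAA, JAZ6 was called lower in BiAux (log2 fold change -0.72, standard error 0.12, limma p 0.000309, adjusted p 0.0337) and in BiAux+IAA (-0.55, standard error 0.10, p 0.000143, adjusted p 0.0133). The latter value was -0.49 without IAA 2 and -0.50 with 2 CPM added in place of 0.5, and was then not called. Against mock, JAZ6 in IAA was 0.50 higher (standard error 0.15, p 0.00989, adjusted p 0.17), a value that rounds to the fold limit and stayed inside it. The IAA libraries also stood apart on a list of 9 clock genes, with a summed level of 575 to 582 CPM against 381 to 455 in mock, 370 to 470 in BiAux and 462 to 549 in BiAux+IAA. Of these 9 genes, 5 were called higher and 1 lower in IAA against mock, among them PRR5 (1.00, p 5.36e-06, adjusted p 0.0137), TOC1 (0.73, p 4.08e-05, adjusted p 0.0343) and ELF4 (0.82, p 0.000199, adjusted p 0.0555). In IAA against mock 3 of the 9 clock genes had a negative fold change. All 9 had an unadjusted limma p under 0.05 there, as 16.8% of all genes did. The part of the clock in the values of JAZ6 and of the other members was not tested.

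**Figure D3:**
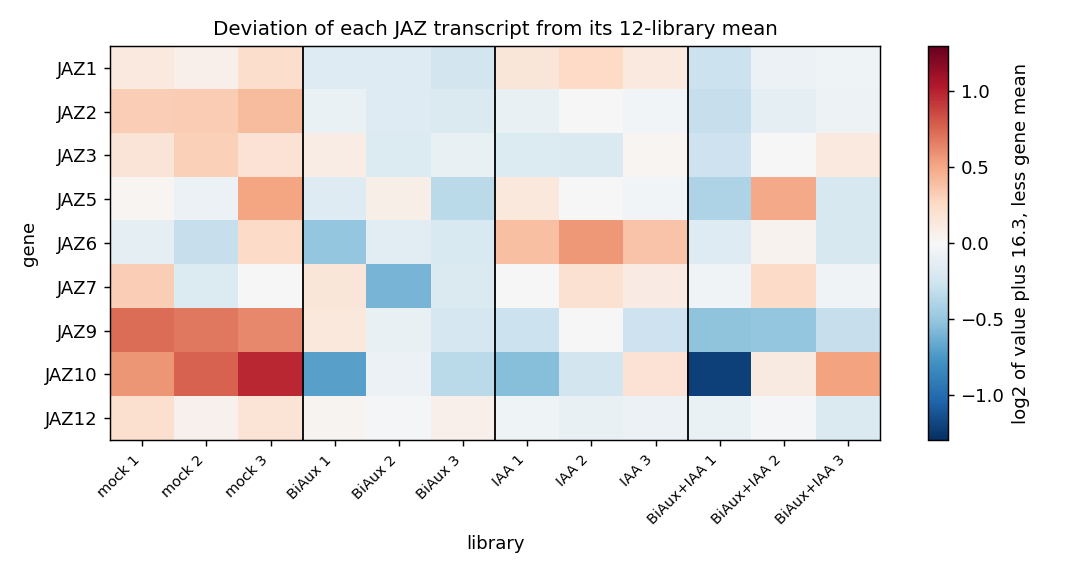
Deviation of the 9 tested JAZ transcripts (rows) from their own mean over the 12 libraries (columns, by treatment), on the log2 scale of the value plus 16.3. JAZ9 and JAZ10 are above their means in all 3 mock libraries, JAZ6 in all 3 IAA libraries, and JAZ10 is lowest in BiAux+IAA 1.

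JAZ3, JAZ5, JAZ7 and JAZ12 were not called in any comparison. JAZ3 (AT3G17860; chr3:6119707-6123044, plus strand), whose truncated form makes roots insensitive to jasmonate, stood at 2077, 2298 and 2116 normalized counts in mock and between 1538 and 2024 in the 9 treated libraries. Its log2 fold changes against mock were -0.28 in BiAux (limma p 0.0232), -0.33 in IAA (p 0.00648) and -0.27 in BiAux+IAA (p 0.0452), with adjusted p-values from 0.147 to 0.952. No treated library of JAZ3 reached the mock range.

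JAZ12 (AT5G20900; chr5:7090704-7092539, plus strand) varied least, with the highest library 1.32 times the lowest. It stood between 1223 and 1358 normalized counts in mock, 1160 and 1227 in BiAux, 1095 and 1131 in IAA and 1030 and 1158 in BiAux+IAA. Its change was -0.22 in IAA (p 0.025, adjusted p 0.229) and -0.24 in BiAux+IAA (p 0.0284, adjusted p 0.288). The 6 libraries with IAA lay between 1030 and 1158 and the 6 without it between 1160 and 1358, a separation that 1.49% of all genes showed. AT5G03235 and AT5G20910 lie on the opposite strand over the JAZ12 gene model.

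The JAZ5 and JAZ7 groups overlapped in every comparison. JAZ5 (AT1G17380; chr1:5955155-5957511, minus strand) lay between 39 and 88 normalized counts and JAZ7 (AT2G34600; chr2:14573030-14573952, plus strand) between 62 and 132. JAZ5 differed from mock by -0.30 in BiAux, with a 95% interval from -0.78 to 0.18. For JAZ7 the same interval ran from -0.79 to 0.27, so differences of the size seen for JAZ9 were not excluded for either. JAZ8 (AT1G30135; chr1:10596352-10597341, plus strand), a repressor that lacks the usual degradation motif, did not pass the filter at a mean of 0.5 CPM and was not tested. It stood at 7, 5 and 5 normalized counts in mock, at 4, 7 and 5 in BiAux, at 2, 2 and 3 in IAA and at 4, 5 and 7 in BiAux+IAA. The lowest value of any gene in IAA 3 is 3, so JAZ8 was at the floor of that library. No fold change is given for it at this level.

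Of the 9 members tested, 2 were called lower in BiAux against mock, where 1.08% of all tested genes were. In IAA 2 members were called lower (2% of all genes) and in BiAux+IAA 3 were (3.73% of all genes). Compared with IAA, 1 member was called lower in BiAux and 1 in BiAux+IAA (1.89% of all genes in either comparison). With the settings given above, no member was called higher in any of these 5 comparisons. Of all genes, 0.507% were called higher in BiAux, 1.29% in IAA and 1.87% in BiAux+IAA against mock, and 1.53% and 1.51% in BiAux and BiAux+IAA against IAA. Adjusted over all genes by limma, 0 members were called in BiAux against mock without the block, although 5 had an unadjusted p under 0.05 (4.25% of all genes). With the fold limit, an adjusted p under 0.05 was reached by JAZ9 in IAA (0.284% of all genes), by JAZ2 and JAZ9 in BiAux+IAA (1.46%), and by JAZ6 against IAA in BiAux (1.06%) and in BiAux+IAA (1.89%).

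Groups did not overlap, with the treated side lower, for 5 members in BiAux (6.29% of all genes), 5 in IAA (11.9%) and 6 in BiAux+IAA (11.6%). The median log2 fold change of the members was -0.30 in BiAux, -0.22 in IAA and -0.27 in BiAux+IAA, beside medians of -0.04, 0.00 and -0.01 over all tested genes. The 3 comparisons share the same mock libraries and are not independent of one another. Against IAA the median was -0.17 in BiAux and -0.07 in BiAux+IAA, beside -0.04 and -0.015 over all genes.

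**Figure D4:**
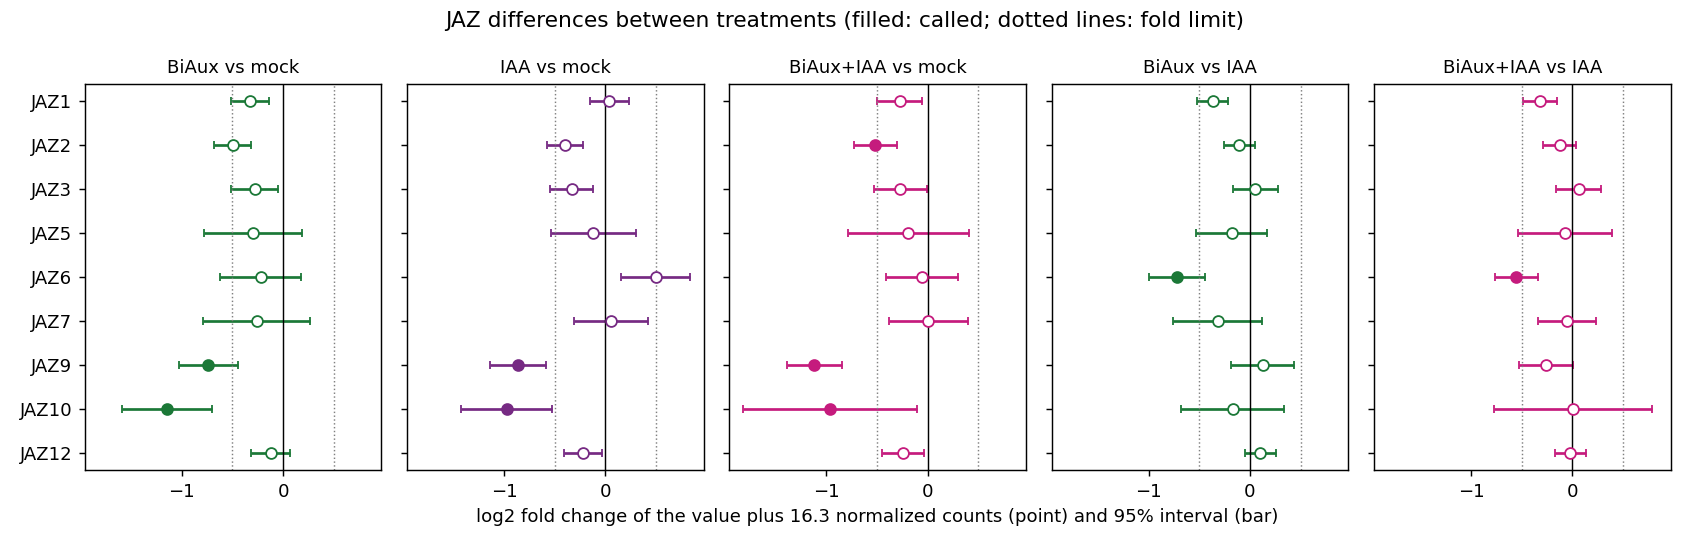
Log2 fold changes (points, of the value plus 16.3 normalized counts) with 95% intervals (bars) of the 9 tested JAZ genes in 5 comparisons, where filled points were called and dotted lines mark the fold limit of 0.5. JAZ9 and JAZ10 are called in all 3 comparisons with mock, and JAZ6 in both comparisons with IAA.

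The test of whether the BiAux difference depended on IAA reached an unadjusted p under 0.05 for 4 members, JAZ2, JAZ3, JAZ9 and JAZ10, and for 7.94% of all genes. All 4 values were positive, so that the BiAux difference was less negative with IAA than without it, or near 0. None passed adjustment (adjusted p 0.484 to 0.62). JAZ10 alone also passed the fold limit, as 1.39% of all genes did in this direction (1.16, standard error 0.50, limma p 0.0405), and it no longer passed without any 1 of 8 libraries, among them mock 2 (p 0.0646) and BiAux+IAA 3 (0.80, p 0.112).

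Shoot-type photosynthesis genes moved with these comparisons. Their 5 genes had a summed level of 59.6 to 67.9 CPM in mock, 42.3 to 47.8 in BiAux, 36.6 to 50.6 in IAA and 40.5 to 52.2 in BiAux+IAA, and none was at 0. Mock was thus the highest group on this list as it was for JAZ2, JAZ3, JAZ9 and JAZ10, and the part of shoot tissue in the JAZ values was not tested. Genes induced early by touch and wounding, 17 in all, had a summed level of 261 to 313 CPM in mock, 230 to 266 in BiAux, 311 to 321 in IAA and 212 to 228 in BiAux+IAA. In BiAux+IAA against mock 7 of them were called lower and none higher, among them ZAT12 (-1.06, limma p 8.68e-06, adjusted p 0.00673), TCH4 (-1.26, p 6.39e-05, adjusted p 0.014) and TCH3 (-1.90, p 0.000109, adjusted p 0.0179). Of the 17, 2 were called lower and 0 higher in BiAux against mock, and 1 lower and 3 higher in IAA against mock. Of all genes, 1.08%, 2% and 3.73% were called lower in BiAux, IAA and BiAux+IAA, and 1.29% higher in IAA. The part of the touch and wounding genes in the JAZ values was not tested either.

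Among other genes of the TIFY family to which JAZ proteins belong, 5 of 6 were tested. JAZ4, JAZ11 and JAZ13, which are JAZ genes outside the members, are counted with these. JAZ4 rose in BiAux+IAA (log2 fold change 0.61, standard error 0.17, limma p 0.00724, adjusted p 0.147), from 151, 143 and 162 normalized counts in mock to 234, 310 and 190. JAZ11 changed by -0.10 there (p 0.392). No other TIFY gene was called in any of the 5 comparisons.

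Of 9 genes for perception and partners tested, 0 were called against mock in BiAux, IAA or BiAux+IAA by limma, and 0, 4 and 0 had an unadjusted p under 0.05. Of all genes, 4.25%, 16.8% and 13.2% had such a p in the same order. The 4 perception and partner genes in IAA did not pass the fold limit. COI1, the jasmonate receptor, lay between 1510 and 1710 normalized counts in all 12 libraries. JAM1, a repressing relative of MYC factors, was lower than in IAA both in BiAux (-0.83, p 0.000721, adjusted p 0.0525) and in BiAux+IAA (-0.74, p 0.00108, adjusted p 0.0366), the same direction as JAZ6.

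Genes of jasmonate synthesis were called lower in 1, 1 and 2 of 12 cases in BiAux, IAA and BiAux+IAA against mock, and none was called higher. LOX4, a lipoxygenase, fell in BiAux (-0.55, p 0.00843, adjusted p 0.69) and in BiAux+IAA (-0.72, p 0.0275, adjusted p 0.285). AOC1, an allene oxide cyclase, fell in IAA (-0.86, p 0.00322, adjusted p 0.12). OPR3, the peroxisomal reductase of the pathway, fell in BiAux+IAA (-0.54, p 0.00154, adjusted p 0.0698). The median of the 12 genes was -0.14, -0.14 and -0.28.

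Genes that inactivate jasmonate were called lower in 1, 2 and 5 of 9 cases, and none was called higher. CYP94B3, which oxidizes the active conjugate, fell in BiAux+IAA (-0.88, standard error 0.14, p 0.000137, adjusted p 0.0213). AT2G38240, annotated as a 2-oxoglutarate-dependent oxygenase, fell in BiAux (-0.62, p 0.0211, adjusted p 0.94), in IAA (-0.86, p 0.00191, adjusted p 0.1) and in BiAux+IAA (-1.23, p 0.000667, adjusted p 0.0476). AT5G05600, annotated as an oxygenase of the same kind, fell in BiAux+IAA (-0.56, p 0.00219, adjusted p 0.0848). AT3G55970 (JRG21), another of that kind, fell in IAA (-0.63, p 0.022, adjusted p 0.218). The median of this list was -0.34, -0.42 and -0.56.

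Response targets of jasmonate did not move one way. Of 8 tested, 0, 1 and 1 were called higher and 1, 4 and 3 lower in BiAux, IAA and BiAux+IAA against mock. NAC055, a transcription factor downstream of MYC proteins, fell in BiAux (-0.56, p 0.00511, adjusted p 0.603) and in BiAux+IAA (-0.69, p 0.0013, adjusted p 0.0644). VSP2, a vegetative storage protein gene, fell in IAA (-0.81, p 0.000179, adjusted p 0.0539). ASA1, which encodes a subunit of anthranilate synthase in tryptophan synthesis, fell in IAA (-0.57, p 0.00341, adjusted p 0.123) and in BiAux+IAA (-0.63, p 0.00258, adjusted p 0.0902). ORA47, an activator of jasmonate synthesis genes, rose in IAA (0.62, p 0.00978, adjusted p 0.169). VSP1, a relative of VSP2, was higher in BiAux+IAA than in IAA (0.97, p 0.00084, adjusted p 0.0327), at 3027, 6593 and 3834 normalized counts against 2228, 2326 and 1933. RD26, a transcription factor gene of stress responses, fell in BiAux+IAA (-1.14, p 0.00011, adjusted p 0.018).

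The members resembled one another only in part. Over the 12 libraries, 33 of 36 pairs of tested members had a positive Pearson correlation, with a median of 0.41. The highest was 0.92 between JAZ2 and JAZ9, followed by 0.82 between JAZ2 and JAZ10, and the lowest was -0.33 between JAZ3 and JAZ6. The points of each pair share libraries and normalization, and the values are descriptions. BiAux+IAA 1 was the lowest library for 6 of the 10 members. By mean log2 deviation it was also lowest on the lists of jasmonate synthesis (-0.24), inactivation (-0.45) and response targets (-0.37). The matching shares over all genes, for this and for the pairs, were not computed.

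The 8 genes whose pattern was most like the mean of the 7 members with at least 5 CPM, of 15219 genes compared over 12 libraries, had correlations from 0.91 to 0.95. They were GRX480 (AT1G28480, a glutaredoxin gene, 0.95), OPCL1 (AT1G20510, which encodes a CoA ligase of jasmonate synthesis, 0.95), DIN2 (AT3G60140, a glycosyl hydrolase gene, 0.94), AT5G43450 (0.92), AT2G38823 (0.92), AT2G21640 (0.91), TI1 (AT2G43510, a trypsin inhibitor gene, 0.91) and the peptide receptor gene PEPR1 (AT1G73080, 0.91). All 8 had their highest group mean in mock, as did the mean of the members. Picked by their likeness to that mean over the same libraries, they were bound to share its broad pattern. OPCL1 averaged 1448 normalized counts in mock, 1112 in BiAux, 1178 in IAA and 1084 in BiAux+IAA. DIN2 averaged 433, 105, 184 and 125 in the same order.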

How the data were processed

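RNA of roots from 12 wild-type libraries, 3 per treatment, was sequenced by the authors, whose pipeline was Trimmomatic for trimming, STAR for alignment (TAIR10), HTSeq for gene counts (Araport11) and edgeR for normalization. The submitters' processing notes name HISAT2 in place of STAR. The deposited table holds log2 values of the normalized count plus 1, to 3 decimals, from 0 to 18.995, for 20814 genes. Up to a value of 8, 100% of entries correspond to whole numbers within that rounding. The scaling factors are not given in the sources used here, and the methods of the study state only a typical depth, so the reads behind each library are not known singly and no counting error was computed. Whether libraries of a treatment came from separate cultures is not stated, so p-values measure the spread between these libraries, which may be technical.

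The log was undone, 1 was subtracted and the result was rounded. The design had assumed linear values. Count models were not applied, since normalized values are no reads. A filter (mean of 0.5 CPM or more, by the median total) kept 19338 genes. After addition of 16.3, log2 values went into limma 3.58.1 (eBayes with trend) in R 4.3.3, on the 6 libraries of each pair of groups or, for the effects of BiAux and of IAA and their interaction, on all 12. The steps were tested on simulated data. P-values were adjusted by the Benjamini-Hochberg method over all genes. Intervals are 95% intervals of the fit.

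The JAZ genes and the other lists, written by hand, were chosen with earlier results of these data known. Named are all members, of other lists the called genes with the smallest p (at most 3 per list and comparison; for the touch, clock, auxin and marker lists, only beside a result they move with), and the 8 genes with the highest Pearson correlation to the mean of the centred members. LOX2, ORA59, NAC019 and a few other list genes were not analysed here. Same-numbered libraries deviated together in BiAux against mock (r 0.41 to 0.78, against -0.69 to 0.62 for other pairs), which meets the limit of 0.1 set for every pair, and the replicate block is therefore given beside that comparison. The numbers come from the titles. Symbols, gene models and promoters came from RefSeq TAIR10.1, whose gene table held 20694 of the 20814 identifiers. As alternatives, the pseudocount was set to 0.1 or 2 CPM, the filter was dropped or raised to 5 CPM, and results were recomputed with median-of-ratios factors, the block, 1 fit of 12 libraries, the deposited log2 values, and each library left out. Python 3.11.15, numpy 2.4.6, pandas 2.3.3 and matplotlib 3.10.9 were used. The tir1-1 libraries of the study were not analysed here.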

Additional observations from a re-analysis of the deposited data

Results flagged for a closer look

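For 4 members, the interaction term of BiAux and IAA reached an unadjusted limma p under 0.05, and none of the 4 passed adjustment. The log2 BiAux difference with IAA less that without IAA was 0.38 for JAZ2 (p 0.00333), 0.35 for JAZ3 (p 0.0438), 0.48 for JAZ9 (p 0.015) and 1.16 for JAZ10 (p 0.0405). After Benjamini-Hochberg adjustment over all genes the p-values were 0.484, 0.62, 0.534 and 0.62, and 0 genes in all passed adjustment by limma, while 1535 genes (7.94%) had an unadjusted p under 0.05.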

How the results depend on the processing

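Under the alternatives other than leaving out a library, no called JAZ change reversed, 90 of 93 single values of called members remained called and 3 did not pass. These were JAZ2 in BiAux+IAA against mock with median-of-ratios factors (-0.50), and with 2 CPM added JAZ6 in BiAux+IAA against IAA (-0.50) and the BiAux difference of JAZ10 over all libraries (-0.47). In BiAux against mock and in IAA against mock, 2 members called became 3 with 0.1 CPM added or with the deposited log2 values. In IAA this was so with median-of-ratios factors as well. Nearest to the limit among members not called were JAZ2 in BiAux (-0.4983) and JAZ6 in IAA (0.4959). The number of members called for the BiAux difference over all libraries, 1, became 2 with 0.1 CPM added or with the deposited log2 values and 0 with 2 CPM added. For BiAux+IAA against IAA it became 0 with 2 CPM added, and for the interaction it became 2 with the deposited values. With a filter at 5 CPM, which leaves 7 members, the median change became -0.33 in IAA against mock and 0.35 for the interaction. The replicate block changed no member call at an unadjusted p (2 members in BiAux against mock, 2 in IAA and 3 in BiAux+IAA, as without it). Same-numbered libraries had mean correlations between -0.02 and 0.03 in the comparisons other than BiAux against mock, which gives no pairing there. The block raised the number of all genes that passed adjustment with the fold limit to 271, 182 and 754 in the 3 comparisons with mock (6, 55 and 283 without it).

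The number of all genes called depended on the filter and the pseudocount. With 2 CPM added it was 167 in BiAux, 380 in IAA and 692 in BiAux+IAA against mock, 381 and 376 in BiAux and BiAux+IAA against IAA, 252 for the interaction and 196 and 226 for the BiAux and IAA differences. With a filter at 5 CPM these counts were 133, 401, 612, 391, 369, 244, 189 and 241, in the same order.

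With each library left out in turn, the number of members called ranged from 2 to 3 in BiAux against mock, 2 to 3 in IAA, 1 to 3 in BiAux+IAA, 1 to 1 in BiAux against IAA, 0 to 2 in BiAux+IAA against IAA, 0 to 2 for the interaction, 0 to 2 for the BiAux difference and 1 to 2 for the IAA difference. The number of all genes ranged from 249 to 770, 544 to 984, 921 to 1286, 481 to 1127, 637 to 811, 342 to 1278, 304 to 458 and 359 to 510. The median change of the members ranged from -0.37 to -0.27, -0.27 to -0.19, -0.32 to -0.21, -0.19 to -0.08, -0.17 to -0.026, 0.11 to 0.41, -0.33 to -0.28 and -0.18 to -0.11. JAZ9 remained called in all 3 comparisons with mock whichever library was left out. Low levels limit what can be said of JAZ5, JAZ7 and JAZ8.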

Other observations

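Summed over the 10 members, mock libraries held 10587 to 11321 normalized counts, BiAux libraries 8286 to 8739, IAA libraries 9315 to 9818 and BiAux+IAA libraries 7661 to 9080. JAZ1 made up 34.7% to 36.4% of these counts in mock, 35.8% to 37.5% in BiAux, 39.8% to 42.8% in IAA and 37.3% to 37.8% in BiAux+IAA. The ratio of JAZ6 to JAZ1 counts was 0.133, 0.140 and 0.134 in the IAA libraries and between 0.0862 and 0.122 in the others.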
